A study of Homo sapiens with 32 samples.

Results

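The genes described here are the DNA replication machinery: 44 genes that encode the proteins that mark origins, load and switch on the replicative helicase, prime and extend new strands, clamp the polymerases, coat single-stranded DNA, join fragments and make deoxyribonucleotides. They were chosen by name, and a gene was measured where it had a transcript cluster (the set of exon array probes assigned to a gene) that carried its symbol alone. Of the 44 genes, 39 had such a cluster, among 21788 clusters on the array and 14167 that were above background. MCM7, POLA1, PCNA, RPA3 and FEN1 shared their cluster with another gene or a small RNA and were not analysed here.

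The cells were 7 B-lymphoblastoid cell lines, that is, B cells grown as permanent lines, and all of them had received 200 µM 4-thiouridine (4sU) for 2 h. 4sU is a uridine analog that growing RNA chains take up, so the labelled nascent RNA could be separated from the total RNA of the same culture, and both were hybridised to exon arrays. GM12813, GM10835 and GM07029 each had 3 independent cultures, and GM07019, GM12812, GM12814 and GM12815 each had 1 culture. The 3 GM12813 cultures were also measured as technical duplicates, which gave 32 arrays (16 nascent, 16 total) from 13 cultures. No unlabelled culture, treatment or genotype was compared, each line is 1 line from the repository, and a difference between lines is a difference between these lines. Values over lines are given below in the order GM12813, GM10835, GM07029, GM07019, GM12812, GM12814 and GM12815.

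In eukaryotic cells the origin recognition complex binds DNA, and CDC6 and CDT1 then load rings of the MCM2-7 helicase onto it. The kinase CDC7 and the factors CDC45, GINS and MCM10 turn these rings into moving helicases, polymerase alpha with its primase lays down primers, polymerase epsilon extends the leading strand and polymerase delta the lagging strand. Proliferating lymphoblastoid cells need all of these products to copy their DNA, and transcription of many of the genes is known to be driven by the E2F family of transcription factors.

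All 11 B cell markers with a cluster of their own were above background, among them MS4A1 and CD79A, and all 6 monocyte and granulocyte markers were below it. Of 10 T and NK cell markers, CD7, NKG7 and ZAP70 were above background, and CD3D, CD3E and CD3G were below it. COL1A1, COL1A2, KRT18 and KRT8 were above background among 8 fibroblast and epithelium markers, and the summed linear total RNA level of that list lay between 1475 and 2022 over the lines, against 20212 to 26077 for the B cell markers. The part of these cell types in the results was not tested. Array medians lay between 7.58 and 7.92 in nascent RNA and between 6.74 and 6.95 in total RNA (log2). Technical duplicates correlated at 0.972 to 0.995, the highest correlation of any 2 arrays was 0.997, and no 2 arrays were identical. The number of independent lines and cultures, not a read depth, limits the precision.

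The motif by which E2F proteins bind DNA was read as TTTGGCG or TTTCCCG on either strand, from 250 bases before to 50 bases after the gene start, in RefSeq promoters of build GRCh38.p14. It was found in 17 of the 34 replication genes with a promoter entry, against 7.30% of all 27305 genes in the table and 9.61% of the 15842 protein-coding ones. A match describes these letters and is not a binding site. GINS4, MCM4, MCM5, POLD3 and RPA2 had no entry. The windows below are shown because they come from genes with a high nascent/total ratio (CDC6, MCM10, POLE), a low one (POLE2) and one close to 0 (CDT1, MCM6), each is read 5′ to 3′ along the strand of the gene, and capitals mark the motif.
CDC6 (chr17:40287843-40287866, plus strand): ggccgggcTTTGGCGggaggtggg
MCM10 (chr10:13161555-13161578, plus strand): gttggaatTTTGGCGggttcagct
POLE (chr12:132687344-132687367, minus strand): tgggagcgCGCCAAAtttctcccc
POLE2 (chr14:49688203-49688226, minus strand): ggcggtggCGCCAAAtcgcaaata
CDT1 (chr16:88803754-88803777, plus strand): gcgggaaaTTTGGCGggaaccgcg
MCM6 (chr2:135876518-135876541, minus strand): tggtcaggTTTGGCGcgaaatctc
With position 0 as the first base of the gene, the match in capitals begins at position -28 in CDC6, 5 in MCM10, -17 in POLE, -4 in POLE2, -27 in CDT1 and -90 in MCM6. In POLE and POLE2 it reads on the opposite strand, as CGCCAAA. Further matches begin at 7 in CDC6, -206 in POLE2, -34 in CDT1 and -152 in MCM6. The further match in CDT1 is on the opposite strand and lies in lower case within the window shown. Sorted by the ratio described next, 7 of 11 genes with a higher ratio, 6 of 14 with a lower ratio and 4 of 9 that did not pass the test carried the motif.

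The first comparison asks how much of each gene's RNA was newly made. The nascent/total ratio of a culture is its nascent minus its total log2 value, centred on the median tested cluster of that culture, so a positive value means more newly made RNA for its total RNA than the median cluster had; the study used this ratio as its measure of mRNA stability. Of the 39 replication genes, 12 had a higher ratio and 18 a lower ratio over the 7 lines (limma against 0, adjusted p under the threshold of 0.05), and 9 did not pass. Over all 14167 clusters, 31.7% were higher and 31.7% lower (63.5% in either direction), so the share of replication genes that was higher (30.8%) lay near the background and the share that was lower (46.2%) above it. The median ratio of the 39 genes was -0.16, against -0.0078 over all tested clusters. The ratio had the same sign in all 7 lines for 27 of the 39 genes, 11 above 0 and 16 below it, against 50.1% of all clusters. POLE, MCM3, POLE3, MCM10 and RFC1 were at least 2-fold above the median cluster, against 9.18% of clusters, and RRM1, POLE2 and PRIM1 at least 2-fold below it, against 5.93%. Members of a single complex lay at both ends, as the plot of ratios by role shows. Since 31.7% of all clusters were higher and 31.7% lower, any small set of genes can hold both directions. The lower calls rest on the centring: without it 33 genes had a mean above 0, 29 of them past the threshold, and 6 had a mean below 0, of which RRM1, POLE2 and PRIM1 passed. Some also depended on signal level. After a fit of the ratio on mean signal was subtracted, MCM2, MCM5 and RPA1 did not pass (adjusted p = 0.373, 0.144 and 0.575). RRM2 changed sign in that setting. Whether the share of lower genes then stayed above the background was not tested.

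**Figure D1:**
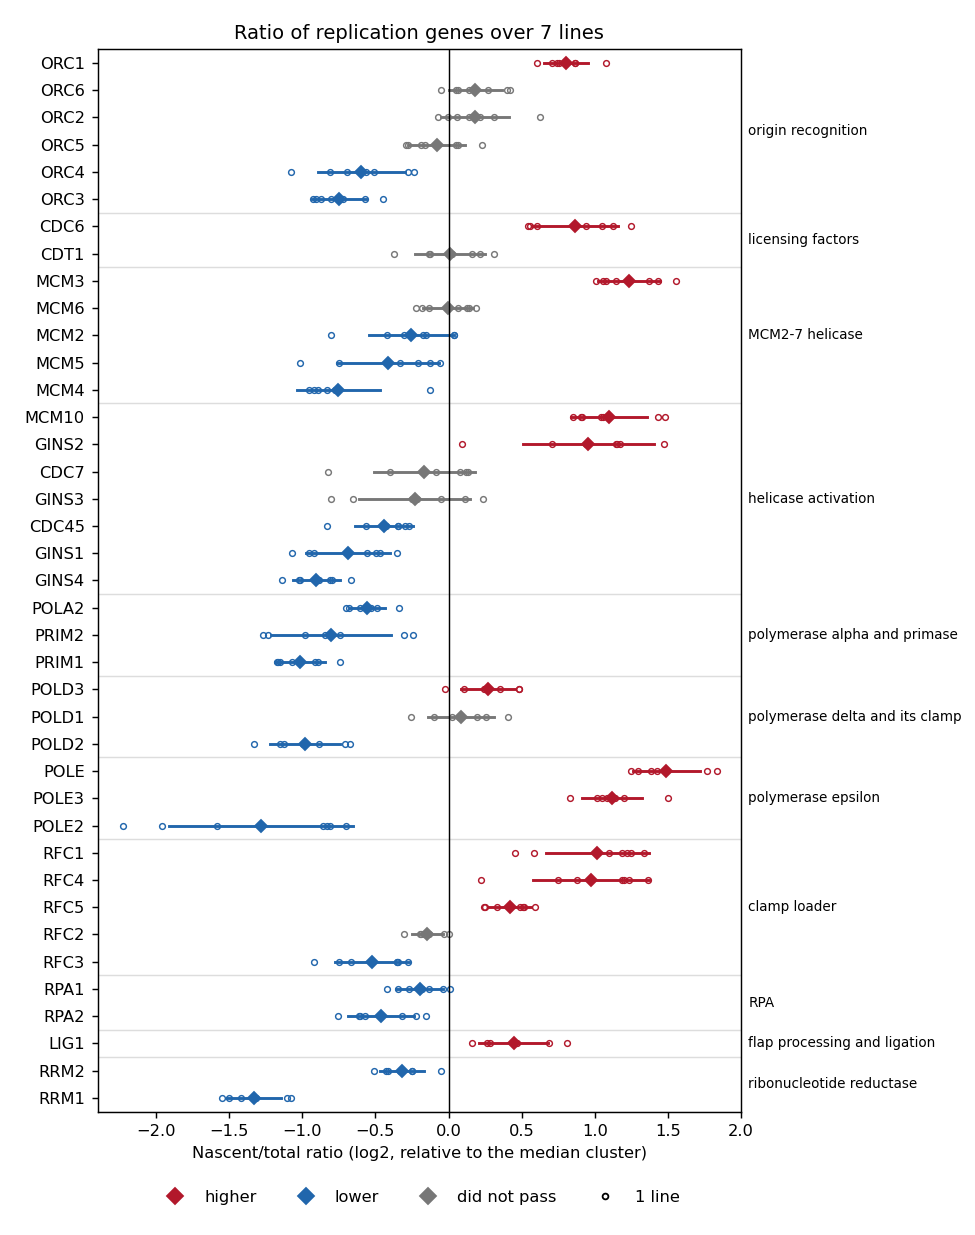
Nascent/total ratio (log2, relative to the median cluster) of the 39 replication genes, grouped by role. Open circles are the 7 lines, diamonds their mean and bars the SD, coloured red for a higher ratio, blue for a lower ratio and grey for genes that did not pass. POLE lies highest at 1.49 and RRM1 lowest at -1.33, and polymerase epsilon holds both POLE and POLE2 (-1.28).

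Among the 6 subunits of the origin recognition complex, 1 was higher, 2 were lower and 3 did not pass. ORC1, its largest subunit, an ATPase, had ratios of 0.76, 1.07, 0.87, 0.74, 0.60, 0.87 and 0.71 over the lines. All 7 values were above 0, the mean was 0.80 ± 0.15 (SD, n = 7; adjusted p = 6.53e-06), and the levels averaged 9.28 in nascent RNA and 7.70 in total RNA. ORC3, another core subunit, went the other way, with ratios of -0.57, -0.93, -0.80, -0.72, -0.87, -0.91 and -0.44. Its mean was -0.75 ± 0.18 (SD, n = 7; adjusted p = 1.02e-05), with every line below 0, and its levels averaged 8.19 in nascent RNA and 8.17 in total RNA. ORC4 was lower as well, at -0.60 ± 0.30 (adjusted p = 0.000357). ORC2 at 0.18 (adjusted p = 0.105), ORC6 at 0.18 (adjusted p = 0.0682) and ORC5 at -0.08 (adjusted p = 0.411) did not pass. On the linear scale ORC1 stood at 1.75 and ORC3 at 0.595 times the median cluster.

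The licensing factors CDC6 and CDT1 act together in loading the helicase, and only CDC6 passed. CDC6 ratios were 1.25, 1.12, 1.05, 0.56, 0.61, 0.94 and 0.54, a mean of 0.87 ± 0.29 (SD, n = 7; adjusted p = 2.86e-05). The 3 lines with 3 cultures had the 3 highest values. CDT1 lay on both sides of 0, at -0.13, 0.31, 0.02, -0.14, 0.21, 0.16 and -0.38, with a mean of 0.0089 ± 0.24 (adjusted p = 0.94).

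Of the 5 measured subunits of the MCM2-7 helicase, MCM3 was higher, MCM2, MCM4 and MCM5 were lower, and MCM6 did not pass. MCM3 had ratios of 1.08, 1.14, 1.01, 1.37, 1.55, 1.43 and 1.05. The mean was 1.23 ± 0.21 (SD, n = 7; adjusted p = 1.22e-06), which is 2.35 times the median cluster and above 93.9% of tested clusters. MCM4 had ratios of -0.77, -0.12, -0.77, -0.92, -0.90, -0.83 and -0.95, a mean of -0.75 ± 0.29 (adjusted p = 5.26e-05), and GM10835 stood apart from the other 6 lines. MCM3 and MCM4 are parts of 1 ring, picked for the largest absolute mean ratios among its measured subunits. The lowest MCM3 value was 1.01 and the highest MCM4 value -0.12, a gap that this choice favours. MCM5 averaged -0.42 ± 0.35 (adjusted p = 0.00755), which lost its call after a fit of the ratio on mean signal was subtracted (adjusted p = 0.144). MCM2 averaged -0.25 ± 0.29 (adjusted p = 0.0475), and that call was lost when GM12813, GM10835, GM07019, GM12814 or GM12815 was left out (adjusted p between 0.0548 and 0.13). MCM6 lay at -0.0021 ± 0.17 (adjusted p = 0.984).

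Factors that activate the helicase were split in the same way, with 2 higher, 3 lower and 2 that did not pass. MCM10, which binds the assembled helicase, had ratios of 1.48, 0.91, 0.91, 1.04, 0.85, 1.06 and 1.43, all above 0, with a mean of 1.10 ± 0.26 (SD, n = 7; adjusted p = 3.65e-06). GINS2 had ratios of 1.17, 0.09, 0.71, 0.94, 1.15, 1.47 and 1.15, a mean of 0.96 ± 0.45 (adjusted p = 0.000118). The low value belongs to GM10835, where GINS2 total RNA was the highest of the 7 lines (8.14). In total RNA GINS2 was the only one of the 39 genes to fall below the background of 6.40 in any line. This was so in GM12814 (6.37) and GM12815 (6.34), whose ratios were 1.47 and 1.15. GINS1 at -0.69 ± 0.29 (adjusted p = 0.000102) and GINS4 at -0.90 ± 0.16 (adjusted p = 2.24e-06), partners of GINS2 in the GINS complex, were lower in every line, and GINS3 lay at -0.23 ± 0.38 (adjusted p = 0.118). CDC45, which joins GINS on the helicase, was lower at -0.44 ± 0.20 (adjusted p = 0.00066), and the kinase subunit CDC7 lay at -0.16 ± 0.35 (adjusted p = 0.23).

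All 3 measured subunits of polymerase alpha and primase were lower. PRIM1, the catalytic primase subunit, had ratios of -0.74, -0.89, -0.92, -1.17, -1.07, -1.15 and -1.17, a mean of -1.01 ± 0.17 (SD, n = 7; adjusted p = 1.29e-06). Every line was below 0, the highest at -0.74. PRIM2, the large primase subunit, had ratios of -0.24, -0.31, -1.23, -1.27, -0.98, -0.84 and -0.74, a mean of -0.80 ± 0.41 (adjusted p = 0.000209). GM12813 and GM10835 lay apart from the other 5 lines here. POLA2, the regulatory subunit of polymerase alpha, averaged -0.56 ± 0.12 (adjusted p = 3.68e-05).

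The polymerases that extend the strands each held subunits with opposite ratios. POLE, the catalytic subunit of polymerase epsilon, had the highest ratio of the 39 genes, at 1.29, 1.38, 1.24, 1.83, 1.77, 1.43 and 1.48. Its mean was 1.49 ± 0.23 (SD, n = 7; adjusted p = 6.89e-07), 2.81 times the median cluster, with 9.54 in nascent RNA and 7.28 in total RNA. POLE2, the accessory subunit bound to it, had ratios of -0.83, -0.81, -0.86, -1.58, -2.22, -1.96 and -0.70, a mean of -1.28 ± 0.63 (adjusted p = 9.81e-05), with 7.12 in nascent RNA and 7.63 in total RNA. Every line of POLE was above every line of POLE2. Both were picked for the largest absolute mean ratios among the measured subunits of polymerase epsilon, a choice that favours this gap. The spread of POLE2 was the widest among the 39 genes. POLE3, a histone-fold subunit, was higher at 1.12 ± 0.21 (adjusted p = 1.8e-06). In polymerase delta, the accessory subunit POLD2 had ratios of -1.33, -1.15, -0.71, -1.12, -0.68, -0.89 and -0.99, a mean of -0.98 ± 0.24 (adjusted p = 4.02e-06). POLD3, another accessory subunit, had ratios of 0.48, 0.26, 0.24, -0.02, 0.10, 0.48 and 0.35, a mean of 0.27 ± 0.19 (adjusted p = 0.0136), so 6 of 7 lines were above 0. The catalytic subunit POLD1 lay at 0.09 ± 0.22 (adjusted p = 0.418).

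The clamp loader RFC opens the sliding clamp and sets it on primed DNA. Its large subunit RFC1 had ratios of 1.19, 0.58, 0.45, 1.25, 1.22, 1.10 and 1.34, a mean of 1.02 ± 0.35 (SD, n = 7; adjusted p = 2.08e-05). RFC4, a small subunit, had ratios of 1.24, 0.75, 0.88, 0.22, 1.20, 1.19 and 1.37, a mean of 0.98 ± 0.40 (adjusted p = 5.22e-05), with GM07019 the lowest line. RFC5 was higher at 0.42 ± 0.14 (adjusted p = 0.000561), RFC3 was lower at -0.52 ± 0.25 (adjusted p = 0.000434), and RFC2 lay at -0.15 ± 0.11 (adjusted p = 0.0878). The 4 small subunits therefore ran from RFC3 at 0.695 times the median cluster to RFC4 at 1.97 times.

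RPA coats single-stranded DNA, and both measured subunits were lower. RPA2 had ratios of -0.22, -0.32, -0.61, -0.57, -0.61, -0.15 and -0.75, a mean of -0.46 ± 0.23 (SD, n = 7; adjusted p = 0.000765), with every line below 0. RPA1, the large DNA-binding subunit, had ratios of -0.13, -0.35, -0.18, 0.01, -0.04, -0.27 and -0.42, a mean of -0.20 ± 0.16 (adjusted p = 0.0402), and its call was lost when GM12813, GM10835, GM07029, GM12814 or GM12815 was left out (adjusted p between 0.0629 and 0.105). LIG1, the ligase that seals Okazaki fragments, had ratios of 0.26, 0.16, 0.29, 0.69, 0.81, 0.47 and 0.45. They were all above 0, with a mean of 0.45 ± 0.24 (adjusted p = 0.00134).

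Ribonucleotide reductase, which makes deoxyribonucleotides, had lower ratios in both subunits. RRM1, the large subunit, had the lowest ratio of the 39 genes, at -1.11, -1.50, -1.08, -1.42, -1.55, -1.34 and -1.32. The mean was -1.33 ± 0.18 (SD, n = 7; adjusted p = 5.46e-07), 0.398 times the median cluster, with 10.11 in nascent RNA and 10.66 in total RNA. RRM2, the small subunit, had ratios of -0.05, -0.41, -0.25, -0.43, -0.51, -0.33 and -0.25, a mean of -0.32 ± 0.15 (adjusted p = 0.00306), with 12.61 in nascent RNA and 12.15 in total RNA. Its direction depends on the setting: after a fit of the ratio on mean signal was subtracted in each culture, RRM2 was at 0.31 (adjusted p = 0.00231), and without centring at 0.46.

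The ratio was lower where the total RNA level was higher, with a Spearman rho of -0.42 over the 39 genes and -0.36 over 9623 tested clusters with 1 symbol, a description over genes whose total RNA value enters both measures. The genomic span of the gene showed a rho of -0.16 with the ratio over the 39 genes and 0.02 over all.

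The second comparison asks whether the ratio differed between GM12813, GM10835 and GM07029, from 3 cultures each (limma's moderated F test). It differed for 11 of the 39 replication genes (28.2%), against 25.4% of all tested clusters, a share near the background. The 11 genes were CDT1, MCM4, MCM5, MCM10, CDC45, GINS2, PRIM2, POLD2, RFC1, RFC3 and RFC4. For 10 of the 11 the line means ranged more widely in total RNA than in nascent RNA, as they did for 72.4% of all clusters whose ratio differed, and the ratio and both levels come from the same arrays. MCM4, PRIM2, RFC1 and POLD2 kept their call under all 18 alternative settings. The count was 6 without GM10835 replicate 1 or replicate 2, 7 without GM12813 replicate 1, and 4 without GM10835 replicate 3, GM12813 replicate 2 or GM12813 replicate 3. The other 7 genes each lost the call without at least 1 of these cultures, CDC45 and MCM5 also without GM07029 replicate 2 and CDC45 without GM07029 replicate 1.

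MCM4 had ratios of -0.80, -0.75 and -0.77 in GM12813, -0.14, -0.12 and -0.11 in GM10835, and -0.79, -0.67 and -0.85 in GM07029. GM10835 lay above both other lines with no overlap, by 0.65 against GM07029 (adjusted p = 0.00346), and GM12813 minus GM10835 was -0.65 (adjusted p = 0.00121). Its total RNA was 10.62, 10.59 and 10.41 in GM12813, 9.86, 9.81 and 9.82 in GM10835, and 10.41, 10.10 and 10.21 in GM07029, so GM10835 had the lowest level without overlap. Its nascent RNA was 10.56, 10.62 and 10.52 in GM12813, 10.53, 10.54 and 10.53 in GM10835, and 10.42, 10.20 and 10.08 in GM07029. In nascent RNA the GM10835 cultures lay within the range of GM12813 (GM12813 minus GM10835 0.03, adjusted p = 0.804), although centring each array on its median gave a difference of 0.22 (adjusted p = 0.00499). In cultures like these, fewer cells in a stage of the cycle and less RNA per cell cannot be told apart.

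PRIM2 ratios were -0.42, -0.27 and -0.04 in GM12813, -0.49, -0.11 and -0.32 in GM10835, and -1.15, -0.91 and -1.65 in GM07029. GM07029 lay below both other lines without overlap (GM12813 minus GM07029 0.99, adjusted p = 0.0139; GM10835 minus GM07029 0.93, adjusted p = 0.0102). Its total RNA was 8.20, 8.17 and 7.64 in GM12813, 8.17, 8.02 and 8.28 in GM10835, and 9.15, 8.56 and 9.17 in GM07029. PRIM2 total RNA was thus higher in GM07029 than in either other line (GM12813 minus GM07029 -0.96, adjusted p = 0.00536; GM10835 minus GM07029 -0.80, adjusted p = 0.00507), while its nascent RNA did not pass (adjusted p = 0.487). PRIM1, its partner, did the reverse in total RNA, with 8.32, 8.20 and 8.11 in GM12813, 8.48, 8.37 and 8.39 in GM10835, and 7.59, 7.53 and 7.90 in GM07029 (adjusted p = 0.000741), and its ratio did not pass (adjusted p = 0.438).

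RFC1 ratios were 1.06, 1.23 and 1.28 in GM12813, 0.44, 0.70 and 0.61 in GM10835, and 0.45, 0.59 and 0.31 in GM07029. GM12813 lay above both other lines, by 0.61 against GM10835 (adjusted p = 0.00686) and by 0.74 against GM07029 (adjusted p = 0.0106). POLD2 ratios were -1.57, -1.21 and -1.20 in GM12813, -1.07, -1.17 and -1.21 in GM10835, and -0.70, -0.77 and -0.65 in GM07029. Here GM07029 lay above both, with GM12813 minus GM07029 at -0.62 (adjusted p = 0.0188) and GM10835 minus GM07029 at -0.44 (adjusted p = 0.0388). The line that stood apart was therefore not the same from gene to gene, as the plot of ratios by culture shows.

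By pairs of lines, the ratio was higher in GM12813 than in GM10835 for MCM10, GINS2, RFC1, RFC3, RFC4 and RRM2 and lower for CDT1, MCM4 and POLD1, against 12.7% and 10.4% of clusters. It was higher in GM12813 than in GM07029 for 3 genes (MCM10, PRIM2 and RFC1) and lower for POLD2 alone, against 4.91% and 0.889%. It was higher in GM10835 than in GM07029 for MCM4 and PRIM2 and lower for MCM5, CDC45, POLD2 and RFC3, against 7.64% and 6.23%. Single cultures decide these small counts. The 6 became 2 without GM10835 replicate 1, GM12813 replicate 2 or GM12813 replicate 3 and 3 without GM10835 replicate 3, and the 3 lower became 1 without GM10835 replicate 1 or replicate 3 or GM12813 replicate 1 or replicate 2. Against GM07029, the 3 higher in GM12813 became 5 without GM07029 replicate 1, 1 without GM12813 replicate 2 and 0 without GM12813 replicate 3, and POLD2 lost its place without GM07029 replicate 3, GM12813 replicate 1 or GM12813 replicate 3. The 2 higher in GM10835 became 5 without GM07029 replicate 1, and the 4 lower became 1 without GM07029 replicate 2, GM10835 replicate 1, GM10835 replicate 2 or GM12813 replicate 2, 2 without GM12813 replicate 3 and 0 without GM10835 replicate 3.

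**Figure D2:**
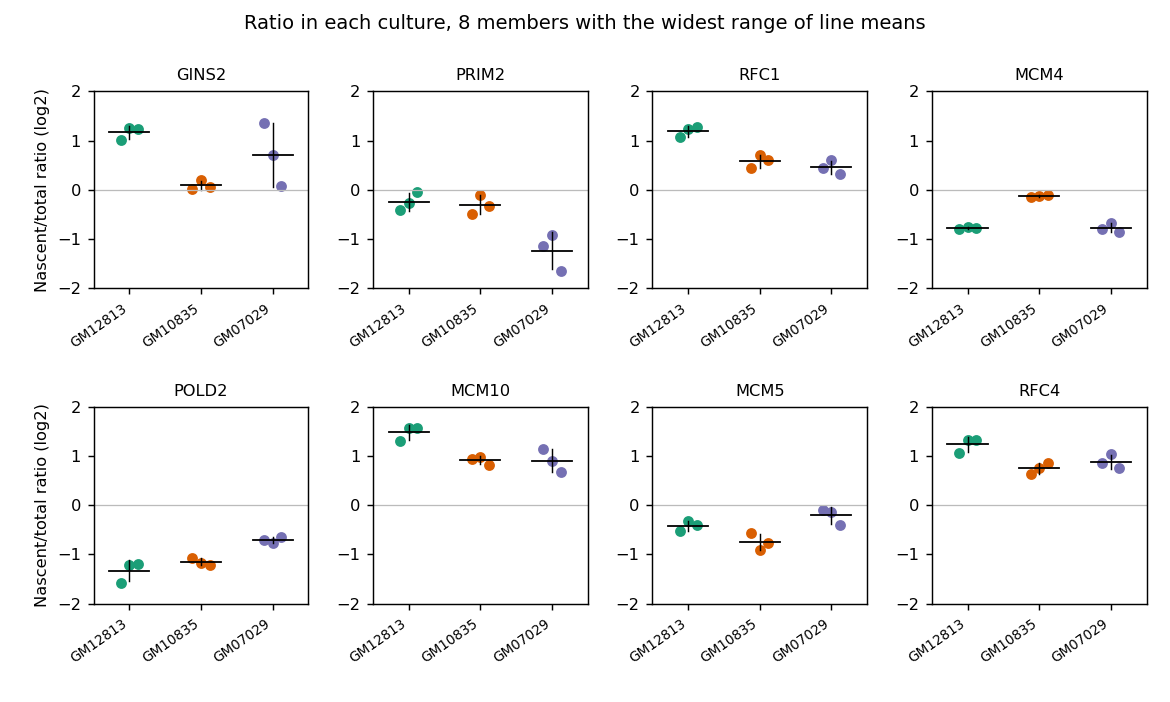
Nascent/total ratio (log2) in each culture of GM12813, GM10835 and GM07029 for the 8 replication genes with the widest range of line means. Points are cultures, horizontal lines the mean of 3 and vertical bars the SD. MCM4 is high in GM10835 (mean -0.12, against -0.77 in GM12813), PRIM2 is low in GM07029 (-1.23), RFC1 is high in GM12813 (1.19) and POLD2 is high in GM07029 (-0.71).

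MCM10 ratios were 1.31, 1.56 and 1.58 in GM12813, 0.93, 0.98 and 0.82 in GM10835, and 1.14, 0.89 and 0.68 in GM07029 (adjusted p = 0.0219). RFC4 ratios were 1.06, 1.33 and 1.32 in GM12813, 0.63, 0.75 and 0.86 in GM10835, and 0.85, 1.04 and 0.75 in GM07029 (adjusted p = 0.0445). Both genes were highest in GM12813, although RFC4 lost its call without any single culture of GM12813 or GM10835. GINS2 ratios were 1.02, 1.25 and 1.24 in GM12813, 0.01, 0.20 and 0.06 in GM10835, and 1.36, 0.70 and 0.07 in GM07029 (adjusted p = 0.0257). GM12813 and GM10835 did not overlap (1.08, adjusted p = 0.0112), and GM07029 spanned both. MCM5 ratios were -0.53, -0.33 and -0.40 in GM12813, -0.57, -0.90 and -0.77 in GM10835, and -0.10, -0.13 and -0.40 in GM07029 (adjusted p = 0.027), lowest in GM10835.

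RRM1 and POLE, the genes at the ends of the ratio scale, did not pass between lines (adjusted p = 0.0813 and 0.661), nor did MCM3, CDC6 and POLE2 (adjusted p = 0.763, 0.671 and 0.981). A p above the threshold does not show that their ratios were equal. The largest difference of line means was 0.14 for POLE and 0.13 for MCM3, against culture SDs of 0.07 to 0.11 for POLE and 0.12 to 0.22 for MCM3.

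The third comparison asks how the levels themselves differed. Total RNA differed between the 3 lines for 23 of the 39 genes (59.0%), against 56.3% of clusters, and nascent RNA for 24 (61.5%), against 56.7%. Both differed for 19 genes (48.7%), against 40.7% of clusters. The total RNA count was 15 without GM10835 replicate 1 or replicate 2. With levels as deposited, of the 24 genes with a difference in nascent RNA, 20 were lowest in GM07029, against 59.7% of all clusters with such a difference. GM10835 was highest for 18 of the 24, against 69.0% of these clusters, and GM12813 for 6, against 11.0%.

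By pairs of lines, nascent RNA was higher in GM12813 than in GM07029 for 15 of the 39 genes, against 12.7% of all clusters, and lower for 0, against 5.65% (limma; 0 also at an unadjusted p under 0.05 and in the ordinary one-way fit). It was higher in GM10835 than in GM07029 for 21 genes, against 41.6% of clusters, and lower for 0, against 13.7% (limma; 1 at an unadjusted p under 0.05, ORC4, and 0 in the ordinary fit). Without GM07029 replicate 3, 1 gene was lower. The count of 15 became 24 without GM07029 replicate 1, 8 without GM07029 replicate 2, 7 without GM07029 replicate 3, 8 without GM12813 replicate 1, 7 without GM12813 replicate 2 and 9 without GM12813 replicate 3. The 15 genes were MCM2, MCM3, MCM4, MCM5, MCM6, CDT1, GINS2, GINS3, PRIM1, POLE3, RFC1, RFC2, RFC4, RFC5 and RRM2. Between GM12813 and GM10835, 11 genes were lower in GM12813 (32.4% of clusters), and ORC4 and RRM2 were higher (11.0%), which became 4 genes without GM07029 replicate 1 and 1 gene without GM12813 replicate 2.

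These pairs rest on levels as deposited, whose array medians differ between lines. Centring each array on its own median moved every nascent difference by -0.25 between GM10835 and GM07029, by 0.19 between GM12813 and GM10835, and by -0.06 between GM12813 and GM07029. After it, 13 genes were higher and 0 lower in GM12813 than in GM07029 (10.1% and 10.5% of clusters), and 12 of the 15 named above kept their call, while CDT1, MCM2 and RRM2 lost it. Between GM10835 and GM07029, centring left 10 genes higher and 10 lower (22.8% and 29.8% of clusters), where the deposited levels gave 21 and 0. Between GM12813 and GM10835 it gave 16 higher and 3 lower (25.5% and 17.0%), where the deposited levels gave 2 and 11. The place of GM10835 in nascent RNA as a whole therefore depends on the scaling, and no gene called under both scalings changed its direction in any pair. CDT1, MCM2, MCM3, MCM5, MCM6, PRIM1, POLD1, POLE3, RFC4 and RPA2 were higher in GM10835 than in GM07029 under both.

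**Figure D3:**
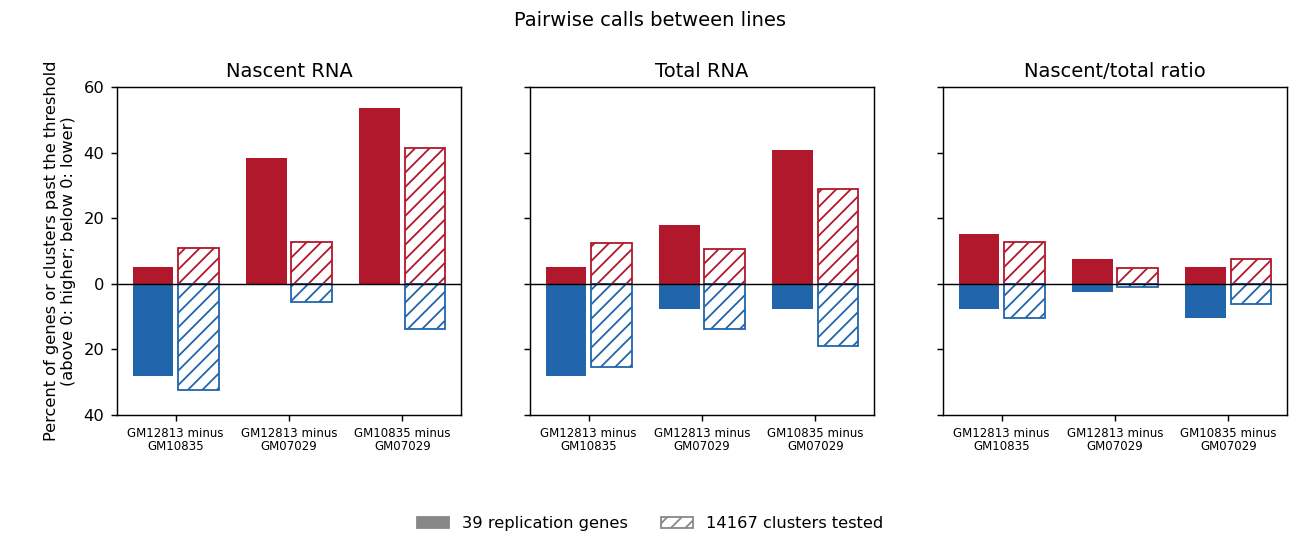
Percent of the 39 replication genes (solid bars) and of the 14167 tested clusters (hatched bars) that were higher (above 0, red) or lower (below 0, blue) in each pair of lines, for nascent RNA, total RNA and the nascent/total ratio, with levels as deposited. In nascent RNA, GM12813 minus GM07029 and GM10835 minus GM07029 have no lower replication gene, and centring the arrays gives 10 higher and 10 lower in the last pair.

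In total RNA, 16 genes were higher in GM10835 than in GM07029, against 29.0% of clusters, and MCM4, ORC4 and PRIM2 were lower, against 18.9%. Centring gave 15 higher and 5 lower (24.3% and 25.8% of clusters). Between GM12813 and GM10835, 11 genes were lower in GM12813 (25.4% of clusters), 7 of them without GM10835 replicate 1 or replicate 3. MCM4 and ORC1 were higher (12.6%), which became 5 genes without GM12813 replicate 3 and 1 gene without any single culture of GM10835 or without GM12813 replicate 1 or replicate 2. After centring, 7 were higher and 9 lower in that pair (22.8% and 21.5%). Between GM12813 and GM07029, 7 were higher (10.8%) and MCM10, PRIM2 and RFC1 lower (13.7%), and centring gave 15 and 3 (16.0% and 16.4%).

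MCM5, a helicase subunit, had the widest range in total RNA, with 10.12, 9.89 and 9.96 in GM12813, 10.76, 10.87 and 10.77 in GM10835, and 9.34, 9.40 and 9.71 in GM07029. No line overlapped another, and GM10835 minus GM07029 was 1.32 (adjusted p = 1.08e-05). Its nascent RNA ran in the same order, with 10.34, 10.34 and 10.44 in GM12813, 11.01, 10.82 and 10.82 in GM10835, and 10.04, 10.04 and 10.03 in GM07029. That difference was 0.84 (adjusted p = 2.35e-06), and 0.59 after centring (adjusted p = 0.000131).

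CDC45, its partner in the active helicase, had total RNA of 8.53, 8.25 and 8.12 in GM12813, 8.95, 8.80 and 8.89 in GM10835, and 7.98, 7.95 and 8.19 in GM07029 (adjusted p = 0.000546). GINS2 had 7.81, 7.35 and 7.14 in GM12813, 8.20, 8.06 and 8.18 in GM10835, and 7.07, 7.10 and 7.77 in GM07029 (adjusted p = 0.00899). RFC4 had 8.68, 8.46 and 8.25 in GM12813, 9.30, 9.28 and 9.19 in GM10835, and 8.59, 8.27 and 8.58 in GM07029 (adjusted p = 0.000634). In all 3 genes GM10835 was above both other lines without overlap, and GM12813 and GM07029 overlapped; after centring GM10835 stayed above both (adjusted p between 1.32e-05 and 0.00822).

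RPA2, the middle RPA subunit, had the widest range in nascent RNA, with 9.21, 9.34 and 9.23 in GM12813, 9.83, 9.84 and 9.76 in GM10835, and 9.22, 8.71 and 8.57 in GM07029. GM10835 lay above both other lines, by 0.98 against GM07029 (adjusted p = 0.000104). PRIM1 nascent RNA was 8.31, 8.24 and 8.26 in GM12813, 8.38, 8.42 and 8.26 in GM10835, and 7.63, 7.45 and 7.48 in GM07029. Here GM07029 lay below the other lines, with GM12813 minus GM07029 at 0.75 (adjusted p = 0.000157). RFC4 nascent RNA was 10.49, 10.56 and 10.45 in GM12813, 10.75, 10.88 and 10.87 in GM10835, and 10.24, 10.08 and 10.04 in GM07029 (adjusted p = 3.12e-05), with no overlap between any lines.

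CDT1 nascent RNA was 9.18, 9.18 and 9.24 in GM12813, 9.77, 9.53 and 9.52 in GM10835, and 9.01, 8.93 and 8.77 in GM07029 (adjusted p = 0.000166). The lines did not overlap, and the difference of GM10835 from GM07029 was 0.70 as deposited and 0.45 after centring. MCM6 nascent RNA was 10.48, 10.53 and 10.50 in GM12813, 10.59, 10.67 and 10.67 in GM10835, and 10.01, 9.99 and 9.84 in GM07029 (adjusted p = 1.19e-05). GM12813 was above GM07029 by 0.56 as deposited and by 0.50 after centring, while GM12813 minus GM10835 was -0.14 as deposited and 0.05 after centring, and passed under neither. In the plot of levels by culture, GM07029 had the lowest mean of MCM5, MCM6 and PRIM1 in both fractions and of RFC4 in nascent RNA, while in total RNA RFC4 averaged 8.46 in GM12813 and 8.48 in GM07029.

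**Figure D4:**
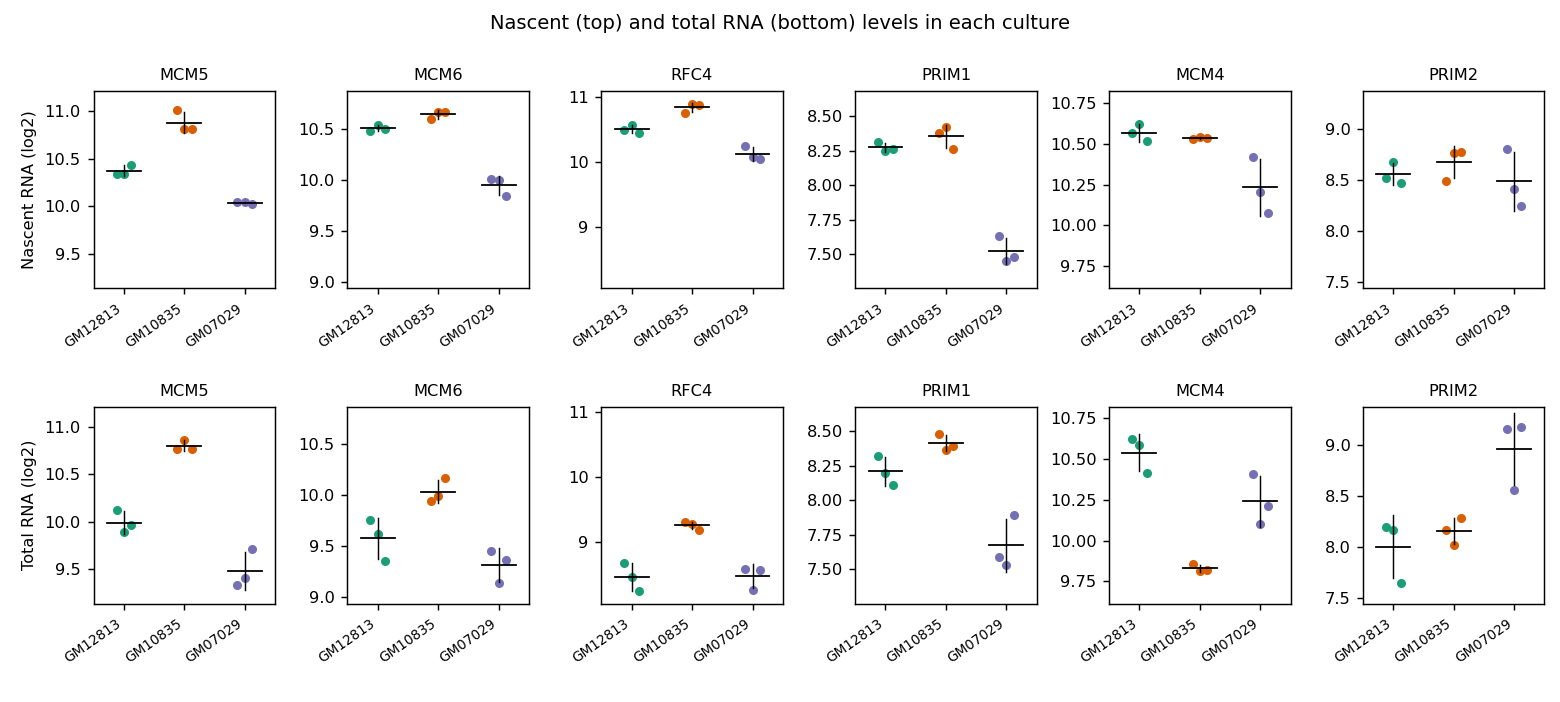
Nascent RNA (top) and total RNA (bottom) levels, in log2 units as deposited, in each culture for 6 replication genes. Points are cultures, horizontal lines the mean of 3 and vertical bars the SD, and both panels of a gene have the same axis range. MCM4 is lowest in GM10835 in total RNA only (9.83, with 10.54 in GM12813), PRIM2 passes the test in total RNA alone (8.16 in GM10835, 8.96 in GM07029), and PRIM1 is low in GM07029 in both fractions (7.52 and 7.67).

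Across the 7 lines, pairs of replication genes were more strongly correlated in level than in ratio. Over the 741 pairs of the 39 genes, the median Pearson r over lines was 0.65 in nascent RNA, against 0.26 over pairs of all tested clusters with 1 symbol. In total RNA it was 0.53, against 0.11. With array medians removed the values were 0.31 against 0.01 in nascent RNA and 0.25 against 0.02 in total RNA, and in the ratio 0.08 against -0.0037. These are descriptions over 7 lines that share their arrays and scaling. The median SD of the ratio over lines was 0.229 for the 39 genes, against 0.261 for all clusters.

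Replication-associated genes outside the 39, a list of 51 with checkpoint, chromatin assembly, nucleotide supply and E2F genes, had 42 clusters above background. Their ratio was higher for 14, lower for 14 and not called for 14, with a median of -0.05. Over all clusters, 31.7% were higher and 31.7% lower. CHAF1A, a subunit of the histone chaperone that assembles chromatin behind the fork, had a ratio of 2.14 ± 0.18 (SD, n = 7; adjusted p = 4.83e-07). CLSPN, a checkpoint mediator, and UHRF1, which brings DNA methylation to new DNA, were among the 14 that were higher, but their total RNA was below the background of 6.40. Both passed the filter, on the mean over all arrays, through nascent RNA alone, which favours a higher ratio. CLSPN had a mean level of 8.19 in nascent RNA and 5.51 in total RNA (log2), and UHRF1 8.31 in nascent RNA and 5.89 in total RNA, so no ratio is given for either. Between the 3 lines the ratio differed for 16 of the 42 (25.4% of all clusters), total RNA for 27 (56.3% of clusters) and nascent RNA for 31 (56.7% of clusters).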

How the data were processed

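The deposited values are log2 gene-level intensities, 1 per transcript cluster and array, 32 arrays in all. Per the submitters' processing notes, the authors used Affymetrix Power Tools and build hg18; the version, the summary method, the background correction and any joint normalization of the fractions: each is not given in the sources used here. Per the labels' protocols, ribosomal RNA was reduced before labelling. An unknown joint or separate normalization fixes where a ratio of 0 lies, so ratios are relative to the median cluster and no stability in hours is given.

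Gene names came from the platform table (14405 clusters with 1 symbol, 2365 with several, 5018 with none). Background was the 95th percentile of the means of 216 olfactory receptor clusters, 6.40, and 14167 clusters lay above it. Technical duplicates were averaged. The ratio over 7 lines used 1 value per line, against 0, and the lines with 1 culture counted like those with 3. GM12813, GM10835 and GM07029 were compared over 9 cultures by the moderated F test and its 3 pairwise contrasts. These fits pool the variance of the 3 lines, although the spread between cultures was not equal. In nascent RNA the median SD of the replication genes over cultures was 0.149 in GM07029, 0.061 in GM12813 and 0.045 in GM10835. In the ratio it was 0.193, 0.122 and 0.097 in the same order. In total RNA it was 0.182, 0.204 and 0.097. How this spread bears on p-values that involve GM07029 was not tested. All adjusted p-values are two-sided, from limma 3.58.1 in R 4.3.3 (lmFit, eBayes with trend), by Benjamini and Hochberg over the 14167 clusters, with a threshold of 0.05. The steps were tested on simulated data.

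The genes, the lists and the tests were chosen with earlier results of these data known. Every gene is named; values in every line are given for the 2 genes of each role with the largest absolute mean ratio, and values in every culture for the 8 genes with the widest range of line means in the ratio, and the 6 each in total and in nascent RNA. PRIM1 and RFC4 fall under more than 1 of these, and MCM4 levels were added after their values were seen. Protein length and a search for a PCNA-binding peptide were planned and not run, since no protein sequences were used here; genomic span took the place of length, chosen after seeing the data. The correlation and the pairwise counts with levels centred were also added after seeing the data.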

Additional observations from a re-analysis of the deposited data

Results flagged for a closer look

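MCM4 stood out in GM10835: its ratio there was -0.12, the highest of the 7 lines, and its gap to the nearest line, -0.77, was 0.78 of the whole range. It was the only such case among 117 sets of 7 line values tested (39 genes, 3 measures), and chance alone flags about 1 set in 20. The 3 cultures of GM10835 all showed it, at -0.14, -0.12 and -0.11.

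The nascent/total ratio differed between GM12813, GM10835 and GM07029 for 11 genes by limma's moderated F test over 9 cultures, against a background of 25.4% of clusters. The adjusted p was 0.00161 for MCM4, 0.00477 for RFC1, 0.0055 for PRIM2 and 0.0119 for POLD2, the genes that kept the call in every alternative. It was 0.0219 for MCM10, 0.0257 for GINS2, 0.027 for MCM5, 0.0279 for RFC3, 0.0369 for CDT1, 0.0404 for CDC45 and 0.0445 for RFC4, whose calls were lost in some. CDT1 averaged -0.13 ± 0.06 in GM12813, 0.31 ± 0.10 in GM10835 and 0.02 ± 0.14 in GM07029 (SD, n = 3 each). RFC3 averaged -0.35 ± 0.09 in GM12813, -0.75 ± 0.13 in GM10835 and -0.35 ± 0.08 in GM07029, and CDC45 averaged -0.56 ± 0.10, -0.83 ± 0.10 and -0.34 ± 0.21 in the same lines.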

How the results depend on the processing

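Over 7 lines, 26 of 30 calls kept their direction and their side of the threshold in every alternative that centred the ratio; the exceptions were MCM2, MCM5, RPA1 and RRM2. Leaving out each line gave 12 to 13 genes higher and 16 to 18 lower. Without centring, 29 passed as higher and 3 as lower, and these ratios changed sign: ORC3 0.024, ORC4 0.18, ORC5 0.69, MCM2 0.52, MCM4 0.020, MCM5 0.36, MCM6 0.77, CDC45 0.33, CDC7 0.61, GINS1 0.085, GINS3 0.54, POLA2 0.21, RFC2 0.63, RFC3 0.25, RPA1 0.58, RPA2 0.31 and RRM2 0.46. That setting leaves in the median ratio of each culture, which centring subtracts. With a fit of the ratio on mean signal subtracted, RRM2 was at 0.31, MCM6 at 0.12, CDT1 at -0.035 and POLD1 at -0.021, and the cause was not tested. Close to 0, MCM6 was at 0.013 without a filter, 0.039 with clusters above background in both fractions and 0.034 with quantile normalization, and leaving out lines gave -0.034 to 0.035 (above 0 without GM10835, GM07029 or GM12815). CDT1 was at -0.0049 with first arrays only, and leaving out lines gave -0.041 to 0.073 (below 0 without GM10835, GM12812 or GM12814). The random block over 13 cultures and eBayes without trend moved no count by over 1.5 times.

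Between 3 lines, the genes whose ratio differed (11) numbered 4 without a filter, 6 with first arrays only and 7 without centring. They numbered 7 by the ordinary one-way F test and 6 with the replicate block, which also left 1 lower ratio for GM10835 minus GM07029. In their deviations from the line mean, same-numbered cultures correlated at -0.43 to 0.20 in the ratio, -0.43 to 0.11 in total RNA and -0.46 to 0.39 in nascent RNA. Differently numbered cultures gave -0.31 to 0.38 in the ratio. With 9 same-numbered pairs and means of 3 cultures, whether the numbers mark pairs cannot be told. Without a filter, higher ratios were 2 for GM12813 minus GM10835 and 1 for GM12813 minus GM07029, and lower ratios 0 for GM12813 minus GM07029 and 0 for GM10835 minus GM07029. Without centring, 3 were higher for GM12813 minus GM10835 and 1 lower for GM10835 minus GM07029. The ordinary test gave 1 higher and 0 lower for GM12813 minus GM07029 and 1 higher and 2 lower for GM10835 minus GM07029 in the ratio, 1 higher and 7 lower for GM12813 minus GM10835 in total RNA, and 9 higher for GM12813 minus GM07029 in nascent RNA. First arrays only gave 0 higher ratios for GM12813 minus GM07029, 1 lower for GM10835 minus GM07029, 15 differences in total RNA, 1 higher and 5 lower for GM12813 minus GM10835, and 1 lower for GM12813 minus GM07029. Quantile normalization gave 2 lower ratios for GM12813 minus GM07029, 7 and 17 higher in total RNA for GM12813 minus GM10835 and GM12813 minus GM07029, 14 higher and 6 lower in nascent RNA for GM12813 minus GM10835, and 12 higher and 6 lower for GM10835 minus GM07029. Levels centred on array medians gave, for GM12813 minus GM10835, 7 higher in total RNA and 16 higher and 3 lower in nascent RNA; for GM12813 minus GM07029, 15 higher in total RNA; and for GM10835 minus GM07029, 5 lower in total RNA and 10 higher and 10 lower in nascent RNA.

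Leaving out each culture gave 4 to 15 differences in the ratio, 15 to 25 in total RNA and 20 to 34 in nascent RNA. In the ratio it gave, for GM12813 minus GM10835, 2 to 7 higher and 1 to 4 lower; for GM12813 minus GM07029, 0 to 5 higher and 0 to 1 lower; and for GM10835 minus GM07029, 2 to 5 higher and 0 to 4 lower. In total RNA these were 1 to 5 and 7 to 12, 6 to 10 and 2 to 3, and 11 to 17 and 2 to 4. In nascent RNA they were 1 to 4 and 8 to 14, 7 to 24 and 0 to 0, and 19 to 28 and 0 to 1. Using all clusters of a gene gave no other value, since no gene had a second cluster of its own. The number of cultures (3 a line) and signal near background in GINS2 total RNA and in POLE2 nascent RNA limit these results.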

Other observations

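Among the replication-associated genes outside the 39, genes that supply nucleotides had ratios on both sides of 0. TYMS, which makes thymidylate, averaged -1.09 ± 0.12 (SD, n = 7; limma, adjusted p = 6.46e-07), TK1, thymidine kinase, -0.99 ± 0.19 (adjusted p = 2e-06). RRM2B, a ribonucleotide reductase subunit, averaged 0.33 ± 0.22 (adjusted p = 0.00646), above 0 in all 7 lines, and DUT, which removes dUTP, lay at -0.28 ± 0.51 (adjusted p = 0.125). TOP2A, a topoisomerase, averaged -1.12 ± 0.53 (adjusted p = 8.33e-05). The transcription factors that act on these genes differed: E2F3 averaged 1.42 ± 0.32 (adjusted p = 1.87e-06), E2F2 1.18 ± 0.18 (adjusted p = 1.1e-06) and E2F1 0.23 ± 0.14 (adjusted p = 0.0186), while RB1, their inhibitor, averaged -0.52 ± 0.33 (adjusted p = 0.00148). The phosphatase gene CDC25A averaged 1.52 ± 0.27 (adjusted p = 8.46e-07) and the kinase gene CDK2 -0.71 ± 0.26 (adjusted p = 5.4e-05). These genes were picked from the list after their values were seen.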
